A study of Mus musculus with 6 samples.

Results

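Aminoacyl-tRNA synthetases join each amino acid to its tRNA. Animal cells hold a cytosolic set and a mitochondrial set, both encoded in the nucleus; most mitochondrial enzymes come from genes of their own, while Gars and Kars each give rise to enzymes of both compartments. Several cytosolic synthetases sit together in the multisynthetase complex, and many cytosolic synthetase genes are known targets of ATF4, the transcription factor that cells use when amino acids run short or the endoplasmic reticulum is under stress.

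The family was read from whole adrenal glands of male mice aged 3 months that were double mutants, Per2Brdm1/Cry1-/- on a C57BL6x129Sv background, and that the labels call deficient in the circadian clock. The mice had been entrained to a light-dark cycle and then released into constant darkness, and adrenals were collected at 46 h or at 54 h counted from lights off. Biotin-labelled material made from total RNA was hybridised to 3 arrays per time point, named 1, B and C. All 6 arrays share the genotype, so no value here bears on the mutations themselves. Members were all probe sets that the platform annotation assigns to exactly 1 gene whose symbol is on a list of 36 synthetases, 20 cytosolic and 16 mitochondrial (symbols ending in 2). They came to 35 of the 18163 genes named on the array and 71 of its 44935 probe sets, 39 for 19 cytosolic genes and 32 for 16 mitochondrial genes; Dars, the cytosolic aspartyl-tRNA synthetase, had no such probe set and is not analysed here, and Mars carries the symbol Mars1 in the annotation. The genes were chosen by family name, and the family itself by measured values: its 54 h and 46 h readings on these arrays, those of Eprs among them, had been seen when it was proposed. Therefore the change between the time points is described without a test of the family and nothing is supported with it.

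Array medians lay between 204 and 217 intensity units and the highest value was 17879 units; the number of arrays limits the precision. The labelled tissue showed its defining markers: Star, the cholesterol carrier of steroid-producing cells, averaged 17478 units at 46 h and 16876 at 54 h, and tyrosine hydroxylase, Th, of the medulla 9097 and 8785. Liver markers were higher at 54 h, with the 8 genes of that list summing to 3533 to 5603 units on the 46 h arrays and 7844 to 11735 on the 54 h arrays. Immune markers were lower, with 5 genes summing to 16725 to 18319 units at 46 h and 14894 to 15490 at 54 h. The 4 acinar pancreas genes measured summed to 7686 to 8137 and 6687 to 6927 units, but only Cela1, with 4231 and 3388 units on average, separated the time points, and Cpa1 had a log2 change of 0.05. Of 4 adipose genes measured, 3 had time points without overlap and higher at 54 h (log2 changes of 0.67 for Cidea, 0.59 for Lep and 0.56 for Ucp1) while Adipoq had -0.11, and the list summed to 10102 to 14162 and 12816 to 15620 units. Erythroid markers, 3 genes, summed to 1245 to 1684 and 1747 to 2199 units. Hbb-b2 and Alas2 were higher at 54 h without overlap (log2 changes of 1.04 and 0.54), while Hba-a1 had -0.30 with overlap. The sums of 4 kidney markers overlapped between the time points (1546 to 1711 and 1521 to 1900 units). So did those of 4 skeletal muscle markers (374 to 438 and 391 to 555 units). Of the muscle genes, Myl1 was higher at 54 h without overlap, averaging 132 units at 46 h and 179 at 54 h (log2 change 0.40). No marker of these lists was listed at 0 on any array, and the part of these tissues in the results below was not tested. In whole glands, fewer cells of a type and less RNA per cell cannot be told apart.

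Because ATF4 is the best known regulator shared by cytosolic synthetase genes, promoters in the RefSeq table of build GRCm38.p6, which run from 250 bases before to 50 bases after each gene's start, were searched on both strands for the C/EBP-ATF response element, spelled TGATGNAA. By gene ID 26 of the 35 genes had a promoter that was counted here. The others had none in the table or were left out of the count, whereas the share over all promoters leaves none out. Of the 12 cytosolic genes counted, 5 (41.7%) held a match, against 0 of 14 mitochondrial genes counted and 3.97% of all 32851 promoters in the table. The rule did not use promoters, and the matched sites are shown because they lay in cytosolic genes of this set and in none of the mitochondrial ones counted. Each run is 30 bases around the match nearest the start, 5′ to 3′ on the gene's strand, with the match in capitals.

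Aars, chr8:111033840-111033869, plus strand, match from base 10: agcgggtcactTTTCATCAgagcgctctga
Gars, chr6:55037960-55037989, plus strand, match from base -30: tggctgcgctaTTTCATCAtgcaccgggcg
Iars, chr13:49682126-49682155, plus strand, match from base 8: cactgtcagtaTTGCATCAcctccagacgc
Tars, chr15:11399655-11399684, minus strand, match from base -15: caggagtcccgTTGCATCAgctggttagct
Yars, chr4:129189895-129189924, plus strand, match from base 4: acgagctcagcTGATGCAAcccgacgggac

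In Aars, Gars, Iars and Tars the element lay on the opposite strand, so it reads as its reverse complement, and in Yars it lay on the gene's own strand. Positions count from the start, with base 1 the first base transcribed in the table. The other motif searched, the palindromic site of NRF1, a regulator of nuclear genes for mitochondrial proteins, matched 0 of 12 cytosolic and 0 of 14 mitochondrial genes and 0.971% of all promoters. At that share, NRF1 counts of 0 in sets of this size are not a result about them. A match is a run of letters and not a measured binding site.

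Eprs, the gene with the highest change of the family, had no match to either motif in its window. Its 250 bases before the start, chr1:185362794-185363043 on the plus strand of GRCm38.p6, are shown in lower case throughout because no motif searched was found in them.

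Eprs: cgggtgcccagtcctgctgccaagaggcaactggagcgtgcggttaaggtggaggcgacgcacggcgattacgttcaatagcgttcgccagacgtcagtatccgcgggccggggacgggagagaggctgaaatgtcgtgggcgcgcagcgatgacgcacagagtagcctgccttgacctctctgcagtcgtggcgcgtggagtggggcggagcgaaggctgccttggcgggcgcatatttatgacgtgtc

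Among the cytosolic genes whose promoters were counted, changes between the time points overlapped between those with and those without the element. The log2 changes of the 5 genes with a match ran from -0.08 for Aars to 0.28 for Iars, with a median of 0.16. Those of the 7 without ran from -0.09 for Farsa to 0.62 for Eprs, with a median of 0.10.

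Each gene is read below from its probe set with the highest mean over the 6 arrays, and the changes of its other probe sets past the filter are given with it where it has any. All 35 genes passed the filter on low values in that reading, and 64 of the 71 probe sets did. Averaged over the 6 arrays, cytosolic genes read 636 to 4346 units and mitochondrial genes 199 to 2418. These ranges describe probe sets: brightness depends on each probe set's own sequence, so no order of transcripts is taken from them.

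The classes leaned in opposite directions. Log2 changes, 54 h minus 46 h on the log2(intensity + 16) scale, had a median of 0.10 over the 19 cytosolic genes and -0.12 over the 16 mitochondrial genes, beside -0.02 over the 13780 genes that passed the filter. The change was above 0 in 15 cytosolic and 3 mitochondrial genes, against 43.3% of all genes; with arrays centred on their medians it was above 0 in 16 and 4 genes, against 51% of all. Over all normalizations, filters, offsets and fits that left out an array, 13 to 16 cytosolic and 2 to 4 mitochondrial genes were above 0. Both medians are small: the 95% confidence intervals of 17 cytosolic and 15 mitochondrial genes excluded a 1.5-fold change either way, as did those of 89.4% of all genes.

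The readings of the time points did not overlap, with 54 h higher, in 6 cytosolic and 0 mitochondrial genes, where 6.33% of all genes did so. They did not overlap, with 54 h lower, in 0 cytosolic and 3 mitochondrial genes, where 9.95% of all genes did so. In limma, 0 of the 35 genes passed an adjusted p of 0.05, as 0.109% of all genes did; at an unadjusted p of 0.05 there were 6 cytosolic genes higher (4.11% of all genes) and 2 mitochondrial genes lower (6.2% of all genes). Nothing is read from these shares, since the same contrast was in view when the family was proposed.

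**Figure D1:**
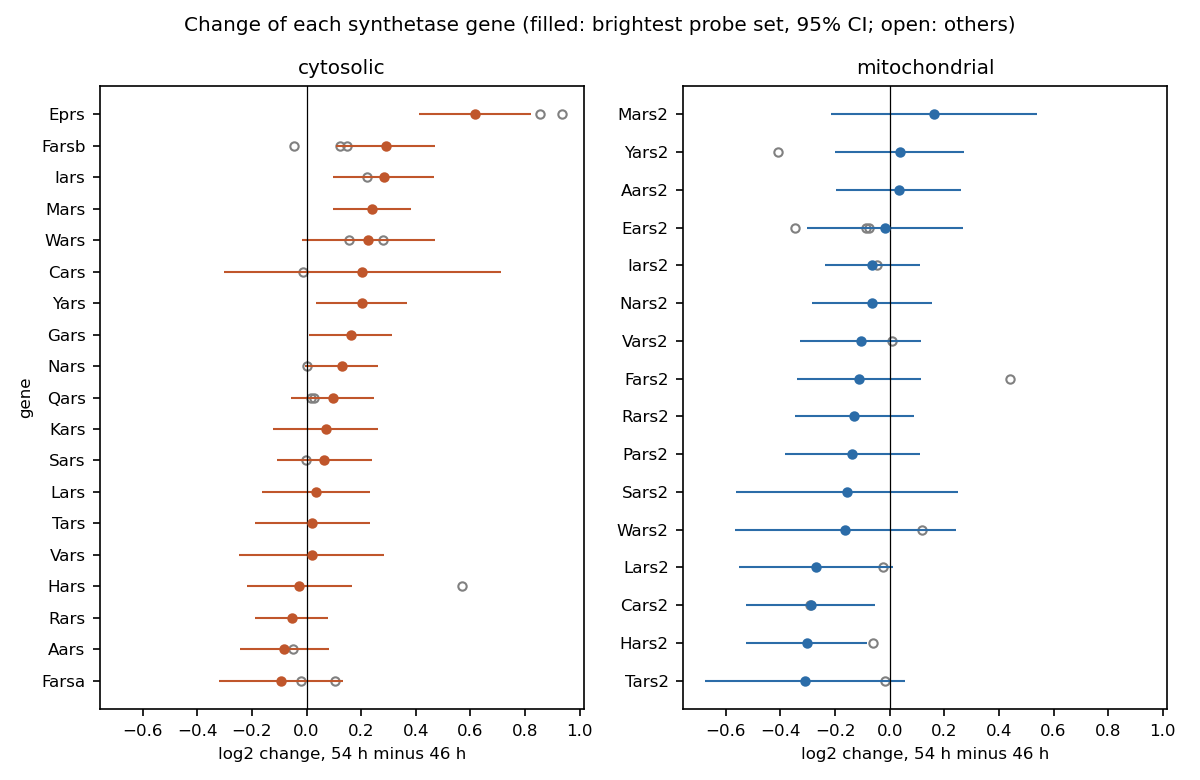
Log2 change, 54 h minus 46 h, of each cytosolic (left) and mitochondrial (right) synthetase gene; filled points with 95% confidence intervals from limma are the brightest probe set (3 arrays per time point) and open points are the gene's other probe sets past the filter. Cytosolic genes run from -0.09 (Farsa) to 0.62 (Eprs), mitochondrial genes from -0.31 (Tars2) to 0.16 (Mars2).

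On single arrays the same division stood on each of the 54 h arrays. Measured from each gene's 46 h mean, the cytosolic median was 0.06, 0.18 and 0.09 on 54 h replicates 1, B and C. The mitochondrial median was -0.13, -0.07 and -0.15. Cytosolic minus mitochondrial, the difference was 0.19, 0.25 and 0.24 on the 54 h arrays and 0.00, 0.03 and -0.06 on the 46 h arrays. The 46 h differences lie around 0 because each gene is measured from its own 46 h mean. Nothing is read from the gap, since the same contrast was in view when the family was proposed. The 46 h array C carried the highest mitochondrial median of all, 0.13, where all genes past the filter stood at 0.05. Less the median of all genes, the mitochondrial median was -0.11, -0.06 and -0.12 on the 54 h arrays and 0.07 on 46 h array C. Without that array the mitochondrial median change went from -0.12 to -0.072, and the difference between the classes went from 0.22 to 0.18. The summed liver markers stood at 7844, 11735 and 9590 units on these arrays in turn and had the same order as the cytosolic medians. On the 46 h arrays, with 5603, 3533 and 5298 units against cytosolic medians of -0.06, -0.02 and 0.06, the orders differed, and the array with the highest liver sum had the lowest median. The part of the liver signal in these medians was not tested.

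**Figure D2:**
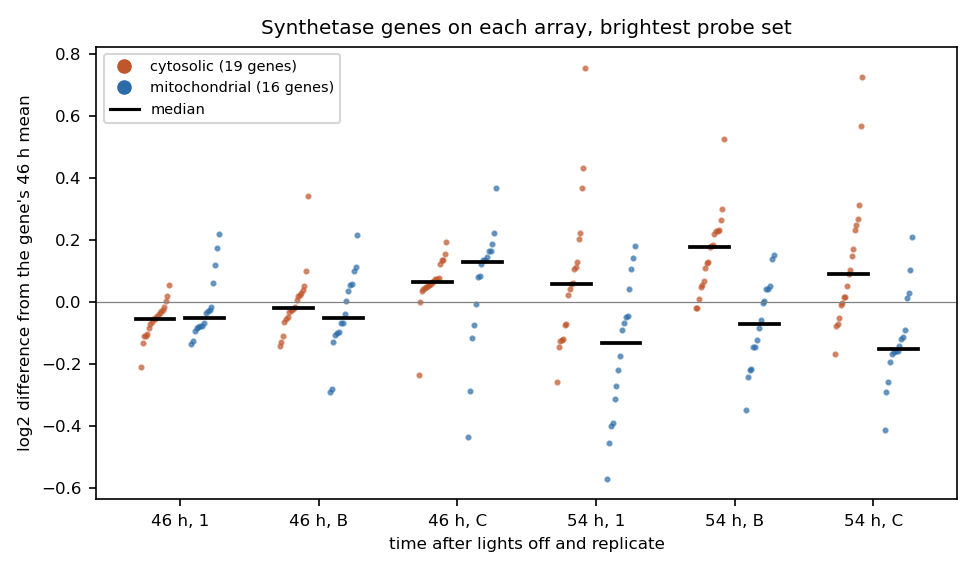
Log2 difference of each gene's brightest probe set from that gene's 46 h mean, on each array, for 19 cytosolic and 16 mitochondrial genes; black bars are class medians. On the 54 h arrays the cytosolic medians lie at 0.06 to 0.18 and the mitochondrial ones at -0.15 to -0.07.

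Eprs encodes the bifunctional synthetase for glutamic acid and proline, a scaffold-bound member of the multisynthetase complex. Its brightest probe set read 1134, 1271 and 1278 units at 46 h, in the order 1, B, C used throughout, and 2081, 1771 and 1825 units at 54 h. Every 54 h array stood above every 46 h array. The log2 change was 0.62 ± 0.09 SE, a 1.53-fold difference (95% confidence interval 0.41 to 0.82 on the log2 scale).

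The other Eprs probe sets showed the same separation. Probe set 1426713_s_at read 762, 1044 and 1044 units at 46 h and 1751, 1852 and 1833 at 54 h, a 1.91-fold difference. Probe set 1452158_at read 817, 1005 and 1018 units and then 1716, 1688 and 1749, a 1.81-fold difference. The dim probe set 1430370_at, under the filter, read 35.4, 56.0 and 65.0 units and then 99.3, 83.1 and 87.4. So all 4 probe sets were higher on all 54 h arrays, and 46 h replicate 1 gave the lowest reading in each.

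Of the family's 64 probe sets past the filter, 2 passed limma at an adjusted p of 0.05, both of Eprs and both higher, where 0.115% of all probe sets passed in either direction. The number of Eprs probe sets past it was 0 without 46 h replicate 1, 0 without 54 h replicate C, 1 without 46 h replicate B, 3 without 54 h replicate B and 0 without an intensity trend in the variance. These counts describe the readings that led to the choice of the family.

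**Figure D3:**
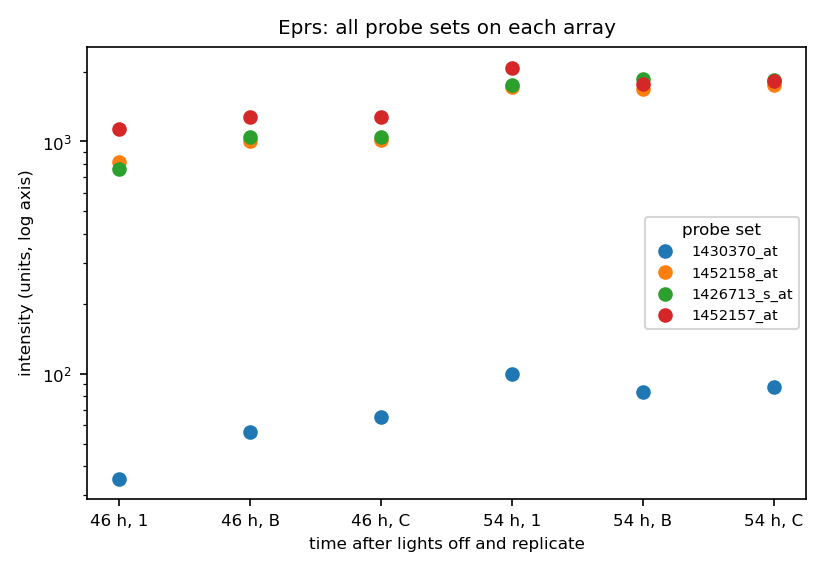
Intensity of the 4 Eprs probe sets on each array, on a log axis, with 1 point per array. In each probe set all the 54 h points lie above all the 46 h points, and 46 h replicate 1 is the lowest.

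The complex was represented by 7 synthetase genes, grouped here after their values were seen. Their median log2 change was 0.10, the same to that precision as the 0.10 of the 12 cytosolic genes outside it. Iars, the isoleucyl enzyme, read 1784, 1567 and 1811 units at 46 h and 2219, 2015 and 2044 at 54 h, a log2 change of 0.28 ± 0.08 SE, and 0.22 on its other probe set. Mars, the methionyl enzyme that also charges the initiator tRNA, read 2203, 2156 and 2332 units and then 2604, 2683 and 2621, a log2 change of 0.24 ± 0.06 SE. On the probe sets printed, every 54 h array was above every 46 h array for both genes.

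The remaining complex members had overlapping time points. Log2 changes were 0.10 for Qars (glutamine; 0.03 and 0.02 on its other probe sets), 0.07 for Kars (lysine) and 0.04 for Lars (leucine). Rars, the arginyl enzyme, read 2794, 2823 and 2949 units at 46 h and 2716, 2818 and 2713 at 54 h, a log2 change of -0.05 ± 0.06 SE with overlap of a single pair of arrays' readings.

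Farsb, the beta subunit of the phenylalanyl enzyme, is among the cytosolic synthetases outside the complex. It read 2594, 2691 and 2638 units at 46 h and 3567, 2886 and 3283 at 54 h. The arrays did not overlap and the log2 change was 0.29 ± 0.08 SE. The alpha subunit Farsa, its obligate partner, read 1426, 1512 and 1694 units and then 1284, 1520 and 1537, with overlap and a log2 change of -0.09 ± 0.10 SE, and -0.02 and 0.10 on its other probe sets. The brightest probe sets of the subunits thus had readings of opposite sign, and the other Farsb probe sets, with log2 changes of -0.05, 0.12 and 0.15, lay nearer to Farsa.

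Yars and Gars also separated the time points. Yars, the tyrosyl enzyme, read 1424, 1446 and 1552 units at 46 h and 1699, 1731 and 1659 at 54 h, a log2 change of 0.20 ± 0.07 SE. Gars, the glycyl enzyme of both compartments, read 2446, 2670 and 2681 units and then 2796, 3047 and 2879, a log2 change of 0.16 ± 0.07 SE. Each has a single probe set, so there is no second reading of either gene.

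Wars and Cars had changes of similar size with overlapping readings. Wars, the tryptophanyl enzyme, which interferon is known to induce, read 1374, 1612 and 1823 units at 46 h and 1721, 1965 and 1920 at 54 h, a log2 change of 0.23 ± 0.11 SE, and 0.28 and 0.16 on its other probe sets. Cars, the cysteinyl enzyme, read 533, 732 and 485 units and then 527, 578 and 960, a log2 change of 0.20 ± 0.22 SE, and -0.01 on its other probe set. On its brightest probe set 54 h replicate C was the highest array, and without it the log2 change of Cars was -0.06.

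The rest of the cytosolic enzymes outside the complex sat near 0. Aars, the alanyl enzyme, read 2893, 3072 and 3116 units at 46 h and 2778, 3125 and 2692 at 54 h, a log2 change of -0.08 ± 0.07 SE, and its other probe set had -0.05. Nars (asparagine) had a log2 change of 0.13, Sars (serine) 0.07, Tars (threonine) 0.02, Vars (valine) 0.02 and Hars (histidine) -0.03, all with overlapping arrays. Of these, Nars, Sars and Hars have a second probe set, with log2 changes of 0.00, 0.00 and 0.57.

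Mitochondrial synthetases serve the few proteins encoded by mitochondrial DNA, which are subunits of the respiratory chain and of ATP synthase. On the brightest probe sets the lowest change was that of Tars2, the threonyl enzyme. Tars2 read 1099, 1123 and 1405 units at 46 h and 804, 1247 and 899 at 54 h. Its log2 change was -0.31 ± 0.16 SE and 54 h replicate B lay among the 46 h arrays. Hars2, the histidyl enzyme, read 1068, 1074 and 1248 units and then 849, 966 and 917, with no overlap and a log2 change of -0.30 ± 0.10 SE. Cars2, the cysteinyl enzyme, read 682, 710 and 802 units and then 552, 625 and 607, also with no overlap and a log2 change of -0.29 ± 0.10 SE.

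For Cars2 the second probe set past the filter gave the same change, -0.29, again with every 54 h array below every 46 h array. A dim Cars2 probe set under the filter went the other way, averaging 34.8 units at 46 h and 82.6 at 54 h, with overlap. For Hars2 and Tars2 the second probe set lay close to 0, at -0.06 and -0.02. Pars2, the prolyl enzyme, was the third mitochondrial gene without overlap, at 341, 341 and 395 units and then 315, 328 and 330, a log2 change of -0.14 ± 0.11 SE. Lars2, the leucyl enzyme, had a log2 change of -0.27 ± 0.13 SE with 46 h replicate C among the 54 h readings. Its other probe set past the filter had -0.02. A dim Lars2 probe set under the filter had 0.13, higher at 54 h without overlap.

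At the upper end of the mitochondrial set only small changes above 0 were seen on the brightest probe sets. Mars2, the methionyl enzyme, read 175, 149 and 244 units at 46 h and 206, 206 and 217 at 54 h, a log2 change of 0.16 ± 0.17 SE. Yars2, the tyrosyl enzyme, read 641, 681 and 719 units and then 772, 640 and 686, a log2 change of 0.04 ± 0.11 SE. Its other probe set had -0.41, with every 54 h array below every 46 h array. Aars2, the alanyl enzyme, read 379, 397 and 385 units and then 375, 399 and 417, a log2 change of 0.03 ± 0.10 SE.

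All of these overlapped on their brightest probe sets, as did Ears2, the glutamyl enzyme. Ears2 read 327, 323 and 398 units and then 376, 349 and 310, a log2 change of -0.02. Its other probe sets had -0.35, -0.09 and -0.08. The others had log2 changes of -0.06 for Iars2 and Nars2, -0.11 for Vars2 and Fars2, -0.13 for Rars2 and -0.16 for Sars2 and Wars2, each with overlapping readings. Other probe sets had -0.04 for Iars2, 0.01 for Vars2, 0.44 for Fars2 and 0.12 for Wars2, those of Vars2, Fars2 and Wars2 being of opposite sign to the brightest.

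Set beside its counterpart for the same amino acid, the cytosolic gene had the higher change in 16 of 17 pairs, with a median difference of 0.28 on the log2 scale. Eprs enters as counterpart of both Ears2 and Pars2, and Fars2 as counterpart of both Farsa and Farsb, so the pairs are not independent. The exception was alanine, with -0.08 for Aars and 0.03 for Aars2. The widest gaps were 0.75 between Eprs and Pars2, 0.63 between Eprs and Ears2 and 0.49 between Cars and Cars2. With each gene read as the mean of its probe sets the cytosolic gene was above in 14 of 17 pairs, since Fars2 then stood above both Farsa and Farsb. Across the other settings and the fits that left out an array, it was above in 15 or 16 of 17 pairs. With a filter at the 60th percentile it was above in 14 of the 15 pairs left. These fits use the same arrays. The pairs restate the contrast that was in view when the family was proposed, so nothing is read from their counts.

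**Figure D4:**
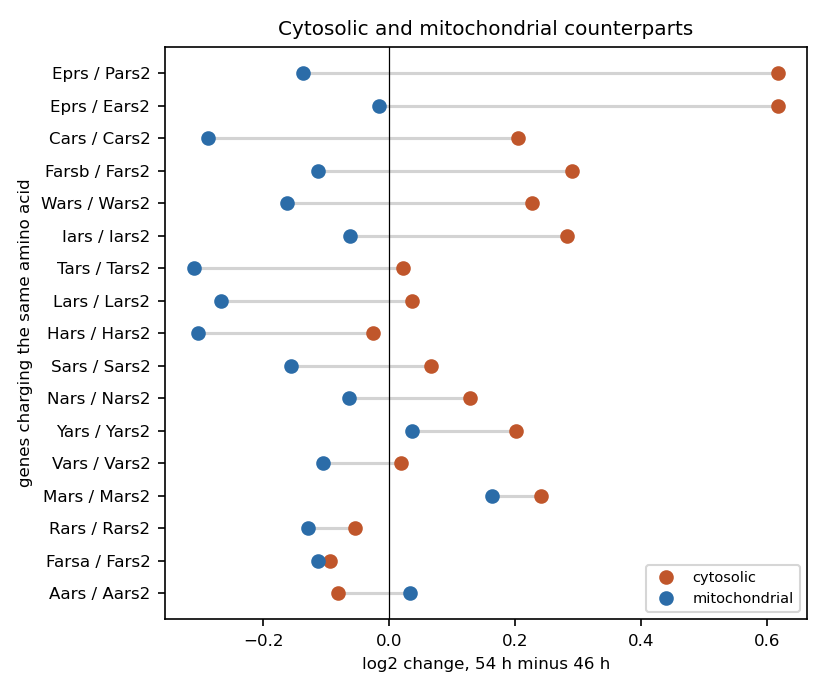
Log2 change, 54 h minus 46 h, of the cytosolic and the mitochondrial synthetase gene for the same amino acid, each read from its brightest probe set, ordered by their difference. The cytosolic point lies to the right in 16 of 17 pairs; Aars and Aars2 are the exception.

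Probe sets of a gene agreed only in part. Of 21 genes with over 1 probe set past the filter, 10 had changes within 0.2 of each other on the log2 scale, 9 had changes of both signs, and 2, Hars and Fars2, had changes over 0.5 apart. Hars read 1731, 1805 and 1864 units at 46 h and 1646, 1962 and 1704 at 54 h on its brightest probe set. On its other probe set, 1438510_a_at, it read 990, 1067 and 1281 and then 1934, 1489 and 1555, a log2 change of 0.57 against -0.03.

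Fars2, the mitochondrial phenylalanyl enzyme, likewise read 1851, 1735 and 2132 units and then 1627, 1956 and 1699 on its brightest probe set. On 1439406_x_at it read 739, 888 and 817 and then 1383, 876 and 1123, a log2 change of 0.44 against -0.11. Yars2 showed the reverse, with 0.04 on its brightest probe set and -0.41 on 1430134_a_at, which read 691, 670 and 774 units and then 483, 596 and 522. For these genes the direction therefore depends on which probe set is read.

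Opposed readings were most frequent on 54 h replicate 1. On that array 5 of the 21 genes (Farsa, Farsb, Hars, Fars2 and Yars2) had a probe set at its highest of the 6 arrays and another at its lowest, where 11.4% of 5811 genes with several probe sets did. On the other arrays 0 or 1 synthetase gene did, where 3.3% to 12.4% of all genes did. This count was chosen after the values were seen. With each gene read as the mean of its probe sets, Hars had a log2 change of 0.27, Fars2 0.16 and Yars2 -0.19, signs opposite to those of their brightest probe sets, whereas Eprs had 0.80.

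Genes that work with the synthetases were read from lists of partners. Of the 7 complex scaffold and elongation genes measured, 0 passed limma at an adjusted p of 0.05 and 0 reached an unadjusted p of 0.05, with a median log2 change of 0.01; over all genes 0.109% passed and 4.11% higher and 6.2% lower reached that unadjusted p, so counts of 0 in lists of this size are not a result about them. The elongation factor subunit Eef1b2 had a log2 change of 0.08 and the scaffold proteins Aimp1 and Aimp2 had -0.10 and 0.01. Of 6 mitochondrial partners, such as the elongation factor Tsfm (-0.15), the elongation factor Tufm (0.09), the amidotransferase subunit Gatc (0.13) and the formyltransferase Mtfmt (-0.17), 0 passed in limma by either measure, with a median of -0.06. Of 7 genes of tRNA maturation, export and proofreading 0 passed in limma by either measure, with a median of -0.02; the tRNA exporter Xpot had the smallest p and a log2 change of 0.14.

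Genes on the amino acid response list, which holds Atf4 itself and the kinase gene Eif2ak4 beside genes that ATF4 drives, were mixed. Of 15 past the filter (17 measured), a single gene, 1, passed the limma threshold over all probe sets (0.109% of all genes), and 4 reached an unadjusted p of 0.05, all higher, where 4.11% of all genes did; the list's median log2 change was 0.00. This list was chosen with earlier results of these data known, so nothing is read from its counts. The gene that passed was Psat1, of serine synthesis, which stood 0.31 ± 0.04 SE higher on the log2 scale at 54 h. Its adjusted p in limma was 0.0495, just under the threshold. Asns, asparagine synthetase, read 1775, 1219 and 1661 units at 46 h and 2166, 2078 and 1983 at 54 h, a log2 change of 0.43 ± 0.13 SE, with an adjusted p of 0.308 in limma.

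The stress sensor Sesn2 had a log2 change of 0.35 and the ATF4 partner Cebpb 0.30. Atf4 itself read 3888, 3818 and 3556 units and then 2797, 4275 and 4165, a log2 change of -0.03 ± 0.14 SE, and Ddit3, a further stress-induced factor, had -0.29 ± 0.13 SE. Thus the list held members above and below 0, with 54 h replicate 1 the lowest array for Atf4.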

How the data were processed

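The authors deposited a single table of linear intensity values, with a row per probe set and a column for each of the 6 arrays. Per the labels' protocols, biotin-labelled material was made from total RNA purified on small columns. The method of probe summary, background correction and normalization is not given in the sources used here. Of 45001 probe sets, 64 controls, 1 without values and 1 with a damaged value (above 1000000 units) were left out. Names came from the platform annotation: 34848 probe sets named 1 gene, 928 several and 9159 none. Values were taken as log2(intensity + 16), and differences on that scale understate those of dim probe sets. Probe sets with a mean above the 40th percentile (26961) were fitted in limma 3.58.1 under R 4.3.3 (lmFit, eBayes with an intensity trend, two-sided, Benjamini-Hochberg over all), 54 h against 46 h; percentages called are over these, or over 13780 genes at their brightest probe set. The fit was tested on simulated data. Plots used Python 3.11.15 and matplotlib 3.10.9.

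Members and lists were chosen with earlier results of these data known. Of 88 genes on the pathway and marker lists 81 had a probe set. Array values are given for the 6 cytosolic and 4 mitochondrial genes with the highest change, the 3 of each class with the lowest, genes with a probe set past the threshold, genes whose probe sets differ by over 0.5, and genes singled out after their values were seen (Gars, Yars, Pars2, Asns, Atf4). Up to 4 genes per pathway list are named by smallest p, with Aimp1, Aimp2, Atf4 and Ddit3 added. The labels tie no array to an animal, so p-values reflect only variation among these samples, and that may be technical. Alternatives covered normalization, filter, offset, variance model, the replicate letter as a block, the mean of a gene's probe sets and leaving out each array. Protein sequences were not used here, so counterparts were not aligned. A further matched promoter site is not reported here.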

Additional observations from a re-analysis of the deposited data

How the results depend on the processing

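Probe sets past an adjusted p of 0.05 in limma numbered 31. They numbered 47 with quantile normalization, 50 with arrays centred on their medians, 48 with a filter at the 60th percentile, 3 without an intensity trend, 61 with a robust fit and 2 to 66 when an array was left out. Synthetase genes past it numbered 0, but 1, Eprs, with quantile normalization, with centring, with the 60th percentile filter and with the robust fit, and 0 to 1 when an array was left out (1 without 54 h replicate B). Leaving out an array gave medians of 0.07 to 0.13 for cytosolic genes and -0.13 to -0.072 for mitochondrial genes, and a difference of 0.18 to 0.24; the lowest difference came without 46 h replicate C, and the cause was not tested. Of 488 values of single genes under alternatives, 482 moved by less than the gene's SD between replicates; the 6 that moved further were Eprs, Fars2, Farsb, Hars, Hars2 and Yars2 read as the mean of their probe sets. Samples with the same replicate letter did not deviate together (correlations -0.06, -0.41 and -0.49), so the letter was not read as a pairing. Across letters, 46 h replicate B with 54 h replicate C had 0.46 and 46 h replicate C with 54 h replicate B had 0.38. The remaining combinations lay from -0.04 to 0.13. What arrays of unlike letter share was not tested. With the letter as a block 45 probe sets and 0 synthetase genes passed. Values near the top of the scale and near background understate differences, and 3 arrays per time point limit the precision.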
